A study of Homo sapiens with 9 samples.

Results

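The genes described here carry the MHC class I antigen presentation route and the ligands of PD-1. They are 9 genes picked by name: HLA-B, HLA-C, B2M, TAP1, TAP2, TAPBP, NLRC5, CD274 and PDCD1LG2. They are 9 of the 61552 genes listed for each library, and all 9 were among the 16570 genes that had enough reads to be tested. RNA was sequenced from MDA-MB-231, an established human triple-negative breast cancer line labelled as wild type, after 24 h with 2-deoxy-D-glucose (2-DG), a glucose analogue that blocks glycolysis. The groups were a control (0 mM 2-DG, given as phosphate-buffered saline in the study's methods), 10 mM 2-DG and 20 mM 2-DG, with 3 libraries each, and all cells were kept in DMEM with 10% FBS. The labels do not say whether the libraries of a group came from separate cultures, so p-values measure only the spread between these libraries. Levels are FPKM, reads scaled by gene length and library total, and total reads on genes ran from 30974968 to 40843638 per library. Of the markers of the line, the 3 listed as high were VIM at 285, KRT18 at 150 and CD44 at 69.8 FPKM in the control on average, with CD44 called lower at both doses. Of the 4 listed as low, ESR1 and PGR stayed at or under 0.0204 FPKM in all 9 libraries, while ERBB2 and EPCAM were expressed, at 8.81 and 3.75 FPKM in the control. ERBB2 was also called lower at both doses, with means of 5.91 FPKM at 10 mM and 5.76 FPKM at 20 mM 2-DG, and EPCAM was not called.

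MHC class I molecules show peptides from inside the cell to cytotoxic T cells. Peptides cut by the proteasome are pumped into the endoplasmic reticulum by the TAP1-TAP2 transporter and loaded, with the help of tapasin (TAPBP) and lectin chaperones, onto a heavy chain such as HLA-B or HLA-C paired with the light chain B2M, and NLRC5 is the transcriptional coactivator of these genes. PD-L1 (CD274) and PD-L2 (PDCD1LG2) on the cell surface bind PD-1 and restrain T cells, and interferon gamma is the classical inducer of both the presentation genes and PD-L1.

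Promoter windows of 300 bases, 250 before and 50 from the start on, were found by symbol for 7 of the 9 genes (RefSeq, GRCh38.p14), with NLRC5 and PDCD1LG2 as the others. They were searched on both strands for the Y box core CCAAT, the interferon-response core GAAANNGAA, the X2/CRE core TGACG, the kappa B core GGGANNNNC and the ER stress element core CCACG. Of all 35116 windows in the table, 34.6% held the Y box core, 8.11% the interferon-response core, 24.6% the X2/CRE core, 61.0% the kappa B core and 38.1% the ER stress element core. The interferon-response core was matched in the windows of B2M, TAP1, TAP2, TAPBP and CD274 and not in those of HLA-B and HLA-C. Among the members, the Y box and X2/CRE cores stood together in the windows of HLA-B, HLA-C and B2M. The share of all windows that hold both of these cores is not given here. The kappa B core was matched for all 7 genes with a window, and the ER stress element core for HLA-B, B2M and TAP1. Printed here are the windows of HLA-B (chr6:31357130-31357429, minus strand) and HLA-C (chr6:31272043-31272342, minus strand), the near-identical heavy chain pair, of TAP2 (chr6:32838690-32838989, minus strand) and CD274 (chr9:5450292-5450591, plus strand), the members that fell, and of the neighbours TAP1 (chr6:32853655-32853954, minus strand) and PSMB9 (chr6:32853942-32854241, plus strand), of which PSMB9 fell and TAP1 was not called. Capitals mark matches to the Y box, interferon-response and X2/CRE cores. Neighbouring interferon-response matches overlap by 3 bases, and matches to different cores in capitals do not overlap. A match is a string of letters and was not tested as a binding site. Only exact matches were counted, so a window without a match can still hold a variant of the element.
HLA-B: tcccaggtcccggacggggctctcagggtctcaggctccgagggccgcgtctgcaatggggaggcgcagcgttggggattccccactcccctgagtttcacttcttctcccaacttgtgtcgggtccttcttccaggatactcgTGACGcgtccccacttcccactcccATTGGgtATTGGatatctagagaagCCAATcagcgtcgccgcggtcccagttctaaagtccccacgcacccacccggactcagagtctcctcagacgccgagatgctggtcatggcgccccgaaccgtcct
HLA-C: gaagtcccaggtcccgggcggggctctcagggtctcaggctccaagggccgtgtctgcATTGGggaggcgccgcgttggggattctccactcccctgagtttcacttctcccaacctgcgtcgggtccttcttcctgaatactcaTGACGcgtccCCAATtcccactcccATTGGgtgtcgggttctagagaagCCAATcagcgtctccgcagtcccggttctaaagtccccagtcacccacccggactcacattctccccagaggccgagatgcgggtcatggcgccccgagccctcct
TAP2: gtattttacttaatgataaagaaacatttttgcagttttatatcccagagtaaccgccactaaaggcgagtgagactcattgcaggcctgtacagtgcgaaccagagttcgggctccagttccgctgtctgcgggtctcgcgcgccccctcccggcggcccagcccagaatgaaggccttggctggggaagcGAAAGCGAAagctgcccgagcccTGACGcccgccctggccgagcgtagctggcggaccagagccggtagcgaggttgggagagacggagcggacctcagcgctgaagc
CD274: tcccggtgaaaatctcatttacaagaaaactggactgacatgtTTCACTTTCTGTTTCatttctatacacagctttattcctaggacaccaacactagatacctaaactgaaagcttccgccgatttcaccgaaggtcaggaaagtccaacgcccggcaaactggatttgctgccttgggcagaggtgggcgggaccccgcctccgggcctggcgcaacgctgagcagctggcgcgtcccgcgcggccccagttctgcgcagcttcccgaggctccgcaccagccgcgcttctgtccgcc
TAP1: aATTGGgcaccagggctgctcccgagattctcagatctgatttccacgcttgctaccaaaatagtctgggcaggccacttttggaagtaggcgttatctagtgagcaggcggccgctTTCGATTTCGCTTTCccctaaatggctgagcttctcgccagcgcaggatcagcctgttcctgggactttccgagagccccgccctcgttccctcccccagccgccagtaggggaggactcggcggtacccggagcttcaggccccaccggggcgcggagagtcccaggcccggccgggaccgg
PSMB9: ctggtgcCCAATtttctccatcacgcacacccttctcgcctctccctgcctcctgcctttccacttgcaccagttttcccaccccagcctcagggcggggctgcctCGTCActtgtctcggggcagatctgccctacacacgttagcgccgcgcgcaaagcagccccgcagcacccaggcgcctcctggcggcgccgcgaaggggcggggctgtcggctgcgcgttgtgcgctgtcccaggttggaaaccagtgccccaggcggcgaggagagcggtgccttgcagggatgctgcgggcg
The HLA-B and HLA-C windows were identical at 269 of 304 aligned columns (88.5%), and both held the X2/CRE core, at -106 and -105 from the start, upstream of a Y box core at -56. The TAP1 and PSMB9 starts lie 488 bases apart on opposite strands, so that their windows share 13 bases. TAP1 has a second window in the table (chr6:32852712-32853011, minus strand), with no match to the cores in capitals.

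On the genome, HLA-B, HLA-C, TAP1, TAP2 and TAPBP all lie on the minus strand of chromosome 6 (GENCODE release 29, GRCh38). TAP2 spans chr6:32821833-32838780 in 12 merged exons, and TAP1 spans chr6:32845209-32853978 in 11. Between them lies PSMB8, at chr6:32840717-32844703 on the same strand. CD274 at chr9:5450503-5470566 and PDCD1LG2 at chr9:5510570-5571254 are neighbours on the plus strand. B2M is on chromosome 15 and NLRC5 on chromosome 16.

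In the control the levels spanned from B2M, at 257 ± 16.9 FPKM (SD, n = 3), to PDCD1LG2, at 0.899 ± 0.23 FPKM (SD, n = 3). Between them came HLA-C at 204, HLA-B at 134, TAPBP at 31.8, TAP1 at 21.3, TAP2 at 9.63, CD274 at 4.91 and NLRC5 at 2.06 FPKM. No neighbours in this order overlapped within the control or within 20 mM 2-DG. At 10 mM 2-DG only B2M, with a lowest library at 215 FPKM, and HLA-C, with a highest at 228 FPKM, overlapped. The order depends on the gene lengths behind FPKM: 3121 bases were used for B2M, where 6079 are annotated, and 4623 for HLA-B, where 3051 are, and with the annotated lengths the control means would be 132 FPKM for B2M and 202 for HLA-B. The order of B2M, HLA-C and HLA-B is therefore uncertain, while comparisons of a gene between groups rest on its length only through the 1 added to FPKM before the logarithm. The reads behind the values ran from 53 to 124 per library for PDCD1LG2, from 491 to 841 for CD274, from 652 to 1033 for NLRC5 and from 1286 to 2340 for TAP2, and were at least 2763 per library for the other 5 genes. For genes whose length used is not the annotated one, as for PDCD1LG2 (2432 bases used, 2365 annotated), the length is the smallest that gave whole reads, so their read counts could be too low by a common factor.

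**Figure D1:**
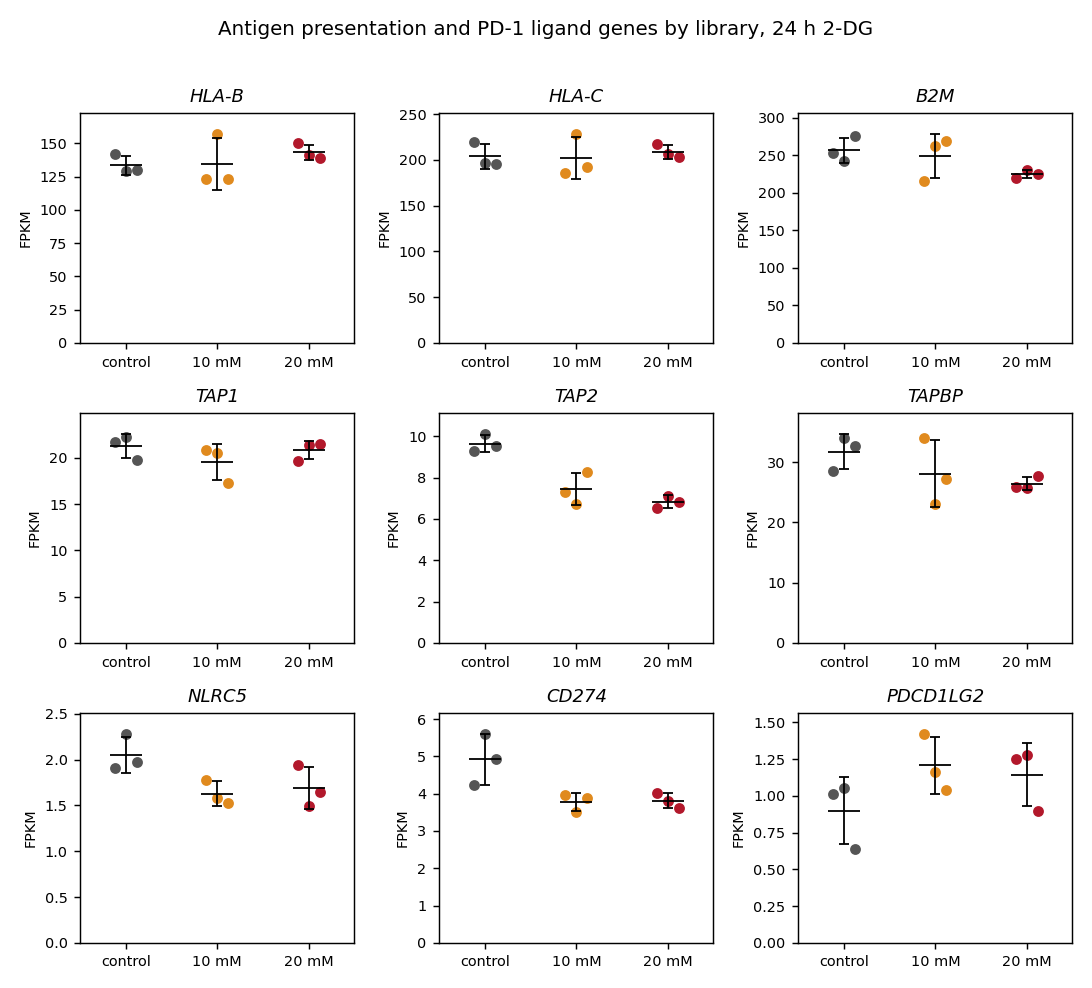
FPKM of each of the 9 genes (y axis, from 0) in the control, 10 mM and 20 mM 2-DG libraries (x axis). Points are single libraries, the bar is the mean and the whisker the SD of 3 libraries; TAP2 and CD274 lie below every control library at both doses.

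Across the 9 genes, TAP2 and CD274 fell at both doses, and the other 7 were not called. Each dose was compared with the same 3 control libraries, so the results of the doses are not independent. A gene was called at an adjusted p under 0.05 (limma's test, Benjamini-Hochberg over all 16570 genes), and log2 fold changes are on the log2(FPKM + 1) scale, which understates changes of low genes. At 10 mM 2-DG, 2 of the 9 genes were called lower, where 17.5% of all genes tested were, and 0 were called higher, where 12.1% were. At 20 mM 2-DG, 2 of 9 were called lower beside 21.6% of all genes, and 0 higher beside 15.4%. The share called lower was thus near that of all genes at both doses. The shares of all genes depended on the scaling: with upper-quartile scaling 14% were lower and 15% higher at 10 mM and 16.8% lower and 19.8% higher at 20 mM, and with median-ratio scaling 14.9% and 13.8% at 10 mM and 18.2% and 17.8% at 20 mM. At an unadjusted p under 0.05 limma had 3 of the 9 lower at 10 mM and 2 at 20 mM, with 0 higher at either dose, where 23.0% and 26.6% of all genes were lower and 17.4% and 19.5% higher. Limma-voom on recovered reads called 3 lower at 10 mM, 2 lower at 20 mM and 0 higher at either, where it called 18.2% and 22.1% of all genes lower and 12.9% and 16.0% higher. The median log2 fold change of the 9 was -0.12 at 10 mM and -0.18 at 20 mM 2-DG, beside -0.01 and -0.02 over all genes tested. Bulk RNA cannot tell fewer cells that express a gene from less of its RNA per cell.

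**Figure D2:**
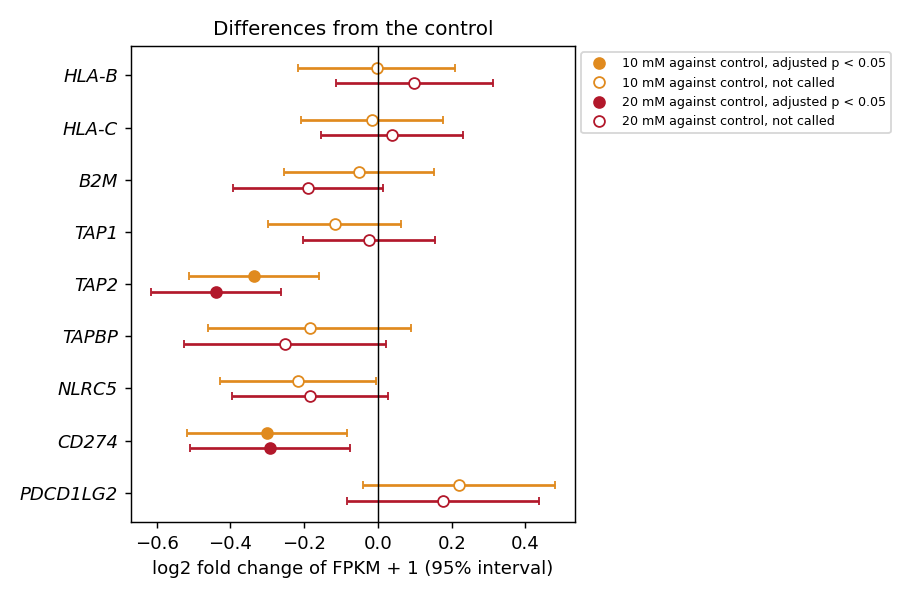
Log2 fold change of FPKM + 1 against the control (x axis, with 95% intervals from limma) for the 9 genes (y axis) at 10 mM 2-DG (orange) and 20 mM 2-DG (red). Filled points passed an adjusted p of 0.05, which TAP2 and CD274 did at both doses; the other 14 points are open.

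Of the class I heavy chains, which hold the peptide, HLA-B was measured at 142, 129 and 130 FPKM in the control, at 123, 157 and 123 FPKM at 10 mM and at 150, 141 and 139 FPKM at 20 mM 2-DG. HLA-C was at 219, 197 and 195 FPKM in the control, at 186, 228 and 192 FPKM at 10 mM and at 217, 206 and 203 FPKM at 20 mM 2-DG. For both genes the groups overlapped, and the second 10 mM library held the highest level of all 9. The log2 fold change of HLA-B was -0.00 at 10 mM (95% interval -0.22 to 0.21) and 0.10 at 20 mM (-0.11 to 0.31), with limma adjusted p-values of 0.981 and 0.453. That of HLA-C was -0.02 at 10 mM (95% interval -0.21 to 0.18) and 0.04 at 20 mM (-0.16 to 0.23), with limma adjusted p-values of 0.906 and 0.772. The ratio of HLA-B to HLA-C FPKM was between 0.647 and 0.668 in the control, between 0.639 and 0.689 at 10 mM and between 0.684 and 0.688 at 20 mM 2-DG, so that at 20 mM all 3 libraries lay above the controls and at 10 mM they overlapped them. HLA genes share reads with near-identical copies, and the annotated exons of HLA-B share 35 bases with HLA-C on the same strand and 542 with AL671883.2 on the other, so these levels are uncertain; AL671883.2 was at 0 reads in all 9 libraries.

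B2M, the light chain that all class I molecules need, was at 253, 242 and 275 FPKM in the control, at 215, 262 and 269 FPKM at 10 mM and at 219, 230 and 225 FPKM at 20 mM 2-DG. All 3 libraries at 20 mM lay below all 3 controls, while those at 10 mM spread on either side of the control mean. The log2 fold change was -0.05 at 10 mM (95% interval -0.25 to 0.15, limma adjusted p = 0.718) and -0.19 at 20 mM (95% interval -0.39 to 0.01, limma adjusted p = 0.131). The value at 20 mM passed the test when only its 6 libraries were fitted (adjusted p = 0.036) and without the first 10 mM library (adjusted p = 0.0383), within a range of 0.036 to 0.478 over 17 alternatives.

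Of the subunits of the peptide transporter, TAP2 was called and TAP1 was not. TAP2 was measured at 9.28, 10.1 and 9.53 FPKM in the control, at 7.29, 6.74 and 8.27 FPKM at 10 mM and at 6.54, 7.13 and 6.84 FPKM at 20 mM 2-DG. Every treated library lay below every control library, and those of the doses overlapped. TAP2 mean FPKM went from 9.63 in the control to 7.43 at 10 mM (log2 fold change -0.34, SE 0.08, limma adjusted p = 0.0103) and 6.84 at 20 mM (log2 fold change -0.44, SE 0.08, limma adjusted p = 0.00192). TAP2 was called in 17 of 17 alternatives at each dose, with log2 fold changes between -0.41 and -0.28 at 10 mM and between -0.49 and -0.35 at 20 mM. On the same strand, 2064 exon bases of TAP2 are shared with AL669918.1, which was at 0 reads in all 9 libraries. TAP1, its partner in the transporter, was at 21.7, 22.3 and 19.8 FPKM in the control, at 20.9, 20.5 and 17.3 FPKM at 10 mM and at 19.7, 21.4 and 21.5 FPKM at 20 mM 2-DG. The groups of TAP1 overlapped, with log2 fold changes of -0.12 at 10 mM (95% interval -0.30 to 0.06, limma adjusted p = 0.307) and -0.02 at 20 mM (95% interval -0.20 to 0.16, limma adjusted p = 0.843). The ratio of TAP1 to TAP2 FPKM was between 2.07 and 2.34 in the control, between 2.09 and 3.04 at 10 mM and between 3.0 and 3.15 at 20 mM 2-DG. This ratio was higher in all 3 libraries at 20 mM than in any control library, and at 10 mM the third library overlapped the control. With 3 libraries a group an exact permutation test of a ratio cannot give a p under 0.1, so ratios are given as values only. TAP1 shares 456 exon bases with PSMB8-AS1 on the opposite strand, whose levels were between 0.399 and 0.866 FPKM, and how reads there were assigned is not given in the sources used here.

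Tapasin, which bridges TAP and the empty class I molecule, was less even between libraries. TAPBP was at 28.5, 34.1 and 32.7 FPKM in the control, at 34.1, 23.0 and 27.3 FPKM at 10 mM and at 25.9, 25.8 and 27.7 FPKM at 20 mM 2-DG. The libraries at 20 mM lay below all 3 controls, and the first 10 mM library was as high as the highest control. The log2 fold change was -0.19 at 10 mM (95% interval -0.46 to 0.09, limma adjusted p = 0.291) and -0.25 at 20 mM (95% interval -0.53 to 0.02, limma adjusted p = 0.138). Without the first 10 mM library, TAPBP was called lower at 10 mM (log2 fold change -0.33, adjusted p = 0.0303) and at 20 mM (adjusted p = 0.0399), and it also passed at 20 mM when only the 6 libraries compared were fitted (adjusted p = 0.0234). Over the 17 alternatives the adjusted p of TAPBP ran from 0.0303 to 0.73 at 10 mM and from 0.0234 to 0.316 at 20 mM.

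NLRC5, the coactivator, was at 1.91, 2.28 and 1.98 FPKM in the control, at 1.78, 1.58 and 1.53 FPKM at 10 mM and at 1.94, 1.49 and 1.65 FPKM at 20 mM 2-DG. All 3 libraries at 10 mM lay below the controls, and the first 20 mM library lay among them. The log2 fold change was -0.22 at 10 mM (95% interval -0.43 to -0.01, limma adjusted p = 0.115) and -0.18 at 20 mM (95% interval -0.40 to 0.03, limma adjusted p = 0.157). With limma-voom on recovered reads NLRC5 was called lower at 10 mM (log2 fold change -0.34, adjusted p = 0.0476), the only alternative of 17 in which it passed there, where the adjusted p ran up to 0.297.

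Of the PD-1 ligands, CD274 was measured at 4.23, 5.59 and 4.93 FPKM in the control, at 3.96, 3.51 and 3.88 FPKM at 10 mM and at 4.02, 3.79 and 3.62 FPKM at 20 mM 2-DG. Every treated library lay below every control library, though the first control stood close above the highest treated ones, and the doses overlapped. CD274 mean FPKM fell by 23.0% at 10 mM (log2 fold change -0.30, 95% interval -0.52 to -0.08, limma adjusted p = 0.0419) and fell by 22.5% at 20 mM (log2 fold change -0.29, 95% interval -0.51 to -0.08, limma adjusted p = 0.0389). The log2 fold change was below 0 in 17 of 17 alternatives at each dose, but the gene was called in only 5 of them at 10 mM and 7 at 20 mM, with adjusted p-values from 0.018 to 0.145 at 10 mM and from 0.0149 to 0.141 at 20 mM. Leaving out any library but the first control ended the call at 10 mM, with the highest adjusted p (0.145, log2 fold change -0.22) without the second control. At 20 mM the call ended without the second control (adjusted p = 0.141, log2 fold change -0.21), without the third control (0.0907), without the third 10 mM library (0.0538) and without the first (0.0656), the second (0.0967) or the third 20 mM library (0.119).

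PDCD1LG2 was at 1.01, 1.05 and 0.635 FPKM in the control, at 1.42, 1.16 and 1.04 FPKM at 10 mM and at 1.25, 1.28 and 0.895 FPKM at 20 mM 2-DG. The groups overlapped, and the third library was the lowest of each group. The log2 fold change was 0.22 at 10 mM (95% interval -0.04 to 0.48, limma adjusted p = 0.190) and 0.18 at 20 mM (95% interval -0.08 to 0.44, limma adjusted p = 0.272). At this low level the added 1 makes these values small: the group means were 34% and 27% above the control, and limma-voom on recovered reads gave 0.44 and 0.36 (adjusted p = 0.211 and 0.295). The ratio of CD274 to PDCD1LG2 FPKM was between 4.2 and 7.75 in the control, between 2.79 and 3.73 at 10 mM and between 2.96 and 4.04 at 20 mM 2-DG. This ratio was lower in all 6 treated libraries than in any control library, and rests on the 53 to 124 reads per library of PDCD1LG2.

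**Figure D3:**
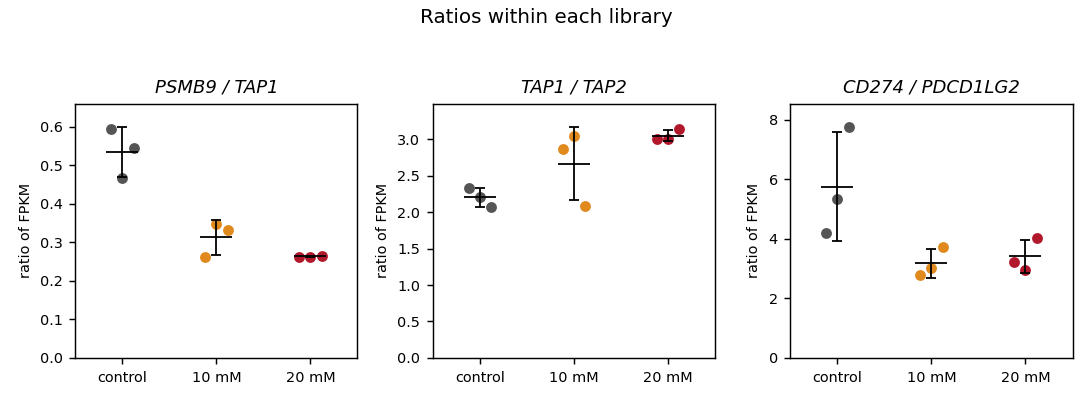
Ratios of FPKM within each library (y axis, from 0) for PSMB9 to TAP1, TAP1 to TAP2 and CD274 to PDCD1LG2, in the control, 10 mM and 20 mM 2-DG (x axis). Points are libraries, the bar is the mean and the whisker the SD of 3 libraries. At 20 mM the libraries do not overlap the control in any of the 3 ratios drawn. Of the ratios not drawn, HLA-B to HLA-C and B2M to HLA-C did not overlap either. HLA-DRA to CD74 did, at 0.339 to 0.391 in the control and 0.326 to 0.408 at 20 mM. The share of other gene pairs that separate in this way is not given here.

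Between the doses, 0 of the 9 genes were called higher and 0 lower by limma at 20 mM against 10 mM 2-DG, where 0% of all 16570 genes were called higher and 0% lower. At an unadjusted p under 0.05 there were 0 of the 9 and 1140 of all genes, and limma-voom also called 0 of the 9. The 95% intervals of the 9 genes lay between -0.34 and 0.32 on the log2 scale, which is the range of differences that these libraries allow. At 10 mM the first and second libraries stood apart: the second held the highest HLA-B and HLA-C and the lowest TAP2, TAPBP and CD274 of its group, while the first held the lowest B2M and the highest TAPBP, TAP1, NLRC5, CD274 and PDCD1LG2. The part of this spread in the results was not tested beyond leaving out each library.

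The genes most like the called members were taken as the protein-coding genes with the smallest root mean square difference over the 9 libraries from the member's log2(FPKM + 1), each centred on its control mean. For TAP2 these were SEPTIN2 (0.0519), VPS52 (0.0522) and TENT4A (0.0537), and 250 of 13111 genes lay within 0.1. For CD274 they included GPR137C (0.0368) and INHBA (0.045), with 261 of 13111 within 0.1. Patterns of this shape and size were thus shared by many genes.

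Of 10 loading and trimming genes, TAP1, TAP2 and TAPBP included, 4 were called higher and 2 lower (TAP2 and TAPBPL) at 10 mM, and 4 higher and 1 lower (TAP2) at 20 mM 2-DG, beside 12.1% of all genes called higher and 17.5% lower at 10 mM and 15.4% and 21.6% at 20 mM. The 4 called higher at both doses were CALR, CANX, PDIA3 and UGGT1. CALR, the chaperone calreticulin of the loading complex, was at 619, 560 and 550 FPKM in the control, at 1520, 1650 and 1670 FPKM at 10 mM and at 1770, 1740 and 1710 FPKM at 20 mM 2-DG. All treated libraries of CALR lay far above the controls, with log2 fold changes of 1.48 and 1.60 (limma adjusted p = 4.9e-06 and 1.75e-06). PDIA3, the disulfide isomerase bound to tapasin, rose by 1.47 and 1.54 and CANX, the membrane lectin calnexin, by 1.06 and 1.13 on the log2 scale at 10 and 20 mM. UGGT1, which returns misfolded glycoproteins to these lectins, rose by 0.49 and 0.52. The peptide trimming enzymes ERAP1 and ERAP2 were not called, with means of 7.98 and 1.2 FPKM in the control and 9.03 and 1.13 FPKM at 20 mM. TAPBPL, a tapasin homologue, was called lower at 10 mM (log2 fold change -0.43, limma adjusted p = 0.0215) and not at 20 mM (-0.26, limma adjusted p = 0.123).

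Of 5 genes of the immunoproteasome and its PA28 activator, 4 were called lower at each dose and 1 was not called, beside 17.5% and 21.6% of all genes called lower, with median log2 fold changes of -0.47 and -0.50. With either other scaling the count was 3 at each dose. PSMB9, a catalytic subunit, was at 12.9, 10.4 and 10.8 FPKM in the control, at 5.45, 7.11 and 5.74 FPKM at 10 mM and at 5.16, 5.63 and 5.7 FPKM at 20 mM 2-DG. No treated library reached the controls, and mean FPKM fell by 46.2% at 10 mM (log2 fold change -0.80, limma adjusted p = 0.00044) and fell by 51.5% at 20 mM (-0.92, limma adjusted p = 0.000128). TAP1, whose start lies 488 bases from that of PSMB9, was not called, and the ratio of PSMB9 to TAP1 FPKM went from between 0.466 and 0.592 in the control to between 0.261 and 0.347 at 10 mM and between 0.262 and 0.265 at 20 mM 2-DG. In the printed windows the interferon-response core is on the TAP1 side and not in the PSMB9 window, which says only where these letters stand. PSMB8 fell by 0.47 and 0.59, PSME2 fell by 0.47 and 0.50 and PSME1 fell by 0.35 and 0.40 on the log2 scale, and PSMB10 was not called (-0.03 and -0.19). The PSME1 call was lost under both other scalings at each dose, with adjusted p-values up to 0.127 at 10 mM and 0.079 at 20 mM over the alternatives. Exons of PSMB9 overlap those of PSMB8 on the opposite strand by 139 bases and those of PSMB8-AS1 on its own by 174.

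**Figure D4:**
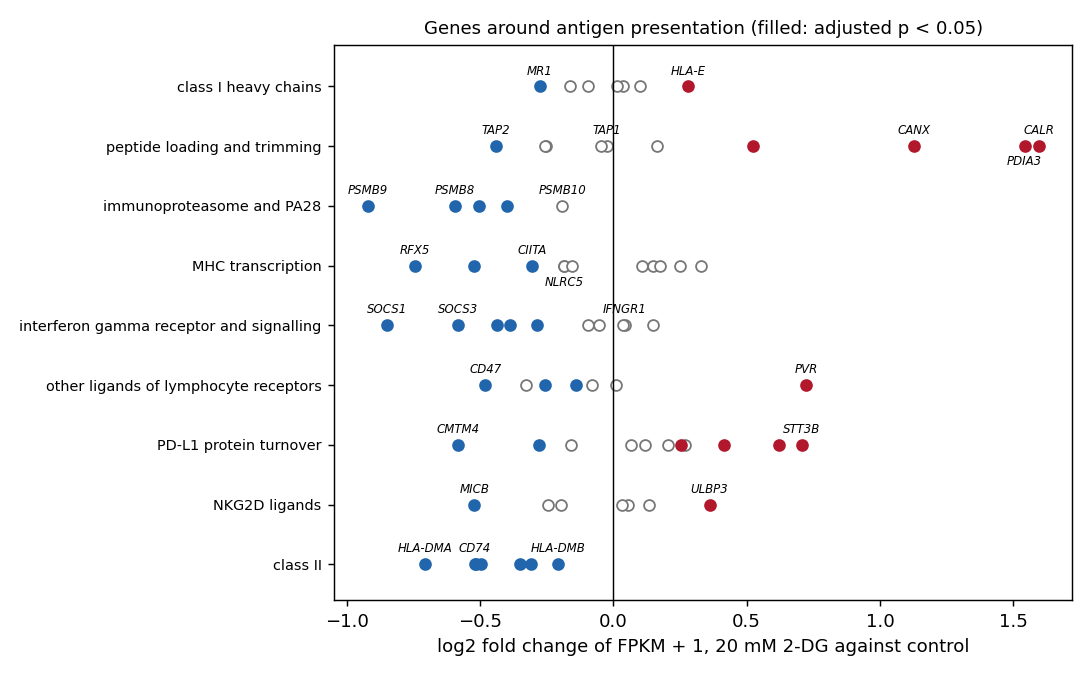
Log2 fold change of FPKM + 1 at 20 mM 2-DG against the control (x axis) for the tested genes of 9 lists (y axis). Each point is a gene, blue if called lower, red if called higher and open if not called by limma. The immunoproteasome and class II lists lie to the left of 0, and CALR, CANX and PDIA3 lie to the far right.

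The class I heavy chain list held 7 tested genes, HLA-B and HLA-C included, of which 1 was called higher and 6 were not called at 10 mM, and 1 was called higher and 1 lower at 20 mM 2-DG, beside 12.1% of all genes called higher and 17.5% lower at 10 mM and 15.4% and 21.6% at 20 mM. HLA-E, the nonclassical ligand of the NKG2A receptor, was at 145, 135 and 138 FPKM in the control, at 158, 178 and 163 FPKM at 10 mM and at 172, 168 and 169 FPKM at 20 mM 2-DG. It lay above the controls in every treated library, with log2 fold changes of 0.25 and 0.28 (limma adjusted p = 0.0123 and 0.00575), and kept its call in 16 of 17 alternatives at 10 mM and 17 at 20 mM. MR1, which presents vitamin metabolites, was called lower at 20 mM (log2 fold change -0.28, limma adjusted p = 0.00716), where its mean of 0.697 FPKM in the control fell by 42.6%. HLA-F and HLA-G were not called and stayed at or under 2.83 and 1.56 FPKM.

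Among 11 genes of MHC transcription, NLRC5 included, 3 were called lower at each dose and 8 were not called, beside 17.5% and 21.6% of all genes called lower, so that the count is near that of all genes. They were RFX5, the DNA-binding subunit of the RFX complex on the X box, NFYB, a subunit of the factor on the Y box, and CIITA, the class II coactivator. RFX5 was at 11.7, 14 and 12.4 FPKM in the control, at 9.02, 7.22 and 8.03 FPKM at 10 mM and at 6.64, 6.85 and 8.08 FPKM at 20 mM 2-DG. All treated libraries lay below the controls, with log2 fold changes of -0.59 and -0.74 (limma adjusted p = 0.00188 and 0.000349). NFYB fell by 0.40 and 0.52 on the log2 scale. CIITA mean FPKM fell by 60.9% at 10 mM and fell by 71.4% at 20 mM from a low 0.366 FPKM (limma adjusted p = 0.00141 and 0.000354), and its exons overlap those of AC133065.3 and DEXI, so its level is uncertain. RFXAP, RFXANK, NFYA, NFYC, IRF1, IRF2 and CREB1 were not called at either dose. With either other scaling, 3 of the 11 (RFXAP, NFYC and IRF2) were called higher at 20 mM beside 3 lower. RFXAP, at 0.889 FPKM in the control and 1.37 FPKM at 20 mM on average, lay above all controls there (log2 fold change 0.33, limma adjusted p = 0.0528) and was called in 6 of 17 alternatives.

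The MHC class II genes, which CIITA controls, were present at low to moderate levels. Of 9 listed, 7 were tested, and 5 were called lower at 10 mM and 7 of 7 at 20 mM 2-DG, beside 17.5% and 21.6% of all genes, with median log2 fold changes of -0.52 and -0.50. With upper-quartile scaling the count at 20 mM was 6. CD74, the invariant chain, was at 44.7, 41.8 and 42.0 FPKM in the control, at 27.4, 31.6 and 30.0 FPKM at 10 mM and at 31.3, 29 and 28.4 FPKM at 20 mM 2-DG. HLA-DRA was at 17.5, 14.1 and 14.7 FPKM in the control, at 10.2, 9.31 and 9.1 FPKM at 10 mM and at 12.8, 9.46 and 9.48 FPKM at 20 mM 2-DG. For both genes every treated library lay below every control. CD74 fell by 0.52 at each dose and HLA-DRA fell by 0.64 and 0.51 on the log2 scale (limma adjusted p = 0.000351 and 0.000234 for CD74, 0.00305 and 0.00704 for HLA-DRA). HLA-DMA, of the peptide exchange factor, fell by 0.58 and 0.71, and HLA-DRB1, uncertain for its near-identical copies, fell by 0.52 and 0.50. HLA-DQA1 and HLA-DQB1 had at most 15 reads in any group and were not tested.

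Class II genes also mark professional antigen-presenting cells. Of 6 leukocyte markers, between 3 and 4 had any reads per library, and their summed level was 4.0, 2.92 and 2.49 FPKM in the control, 1.73, 2.85 and 1.99 FPKM at 10 mM and 1.87, 1.47 and 1.16 FPKM at 20 mM 2-DG. CD14 was the most abundant in all 9 libraries, at 3.83, 2.88 and 2.43 FPKM in the control, 1.69, 2.79 and 1.87 FPKM at 10 mM and 1.82, 1.45 and 1.14 FPKM at 20 mM 2-DG. It overlapped the control and was not called at 10 mM (log2 fold change -0.38, limma adjusted p = 0.126), and was called lower at 20 mM (-0.71, limma adjusted p = 0.00903). PTPRC, the common leukocyte antigen, had 9, 11 and 9 reads in the control, 2, 0 and 0 at 10 mM and 1, 1 and 5 at 20 mM 2-DG, at most 0.0327 FPKM and too few to be tested. Its treated libraries thus lay below the controls, as those of CD74 and HLA-DRA did. LYZ had 11, 10 and 3 reads and ITGAX 1, 8 and 4 over the libraries of the control, 10 mM and 20 mM, and CD3E had 1 read in all. The part of these markers in the class II results was not tested.

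Of 10 genes of the interferon gamma receptor and its signalling, 5 were called lower at each dose and 5 were not called, beside 17.5% and 21.6% of all genes called lower, and with upper-quartile scaling the count at 20 mM was 4. SOCS1, an interferon-induced inhibitor of JAK kinases, was at 2.91, 3.17 and 2.93 FPKM in the control, at 1.37, 1.56 and 1.82 FPKM at 10 mM and at 1.48, 0.998 and 1.22 FPKM at 20 mM 2-DG. All treated libraries lay below the controls, with log2 fold changes of -0.64 and -0.85 (limma adjusted p = 0.00164 and 0.000206). SOCS3 fell by 0.57 and 0.58, and the receptor chain IFNGR2 fell by 0.28 and 0.39 on the log2 scale. STAT3 was called lower at both doses, and the receptor chain IFNGR1 and the kinases JAK1 and JAK2 were not called. IFNG and IFNB1 were at 0 reads in all 9 libraries, and IFNL1 had 14 reads over the 3 control libraries and 2 and 3 over those of 10 and 20 mM.

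Of 11 genes known to act on PD-L1 protein, 3 were called higher and 1 lower at 10 mM, and 4 higher and 2 lower at 20 mM 2-DG, beside 12.1% of all genes called higher and 17.5% lower at 10 mM and 15.4% and 21.6% at 20 mM. The count called higher depended on the scaling: it was 5 at 10 mM with either other one (BTRC and B3GNT3 added), and at 20 mM 6 with median-ratio scaling (SPOP and B3GNT3 added) and 7 with upper-quartile scaling (CSNK2A1 added too), where CMTM6 lost its call and 1 was lower. The share of all genes called higher also went up, to 13.8% and 15% at 10 mM and 17.8% and 19.8% at 20 mM with median-ratio and upper-quartile scaling. STT3A and STT3B, the catalytic subunits of the N-glycan transferase, rose from 45.2 and 49.8 FPKM in the control to 70.1 and 81.6 FPKM at 20 mM (log2 fold changes 0.62 and 0.71). GSK3B, a kinase that marks PD-L1 for decay, rose by 0.37 and 0.41 at 10 and 20 mM. CMTM6 and CMTM4, which protect PD-L1 from lysosomal decay, were at 25.4 and 2.61 FPKM in the control and 20.7 and 1.41 FPKM at 20 mM. CMTM4 was called lower at both doses (limma adjusted p = 0.0372 and 0.00951) and CMTM6 at 20 mM (log2 fold change -0.28, limma adjusted p = 0.0148), where at 10 mM it was -0.21 (limma adjusted p = 0.0602). The CMTM4 call was held in 9 of 17 alternatives at 10 mM and in 17 of 17 at 20 mM. The protein itself was not measured.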

How the data were processed

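RNA-seq of MDA-MB-231 cells (control, 10 mM and 20 mM 2-DG for 24 h, 3 libraries each) was used. The authors deposited FPKM values by Ensembl gene, 1 file per library. The submitters' processing notes name GRCh38 (hg38); the aligner, the counting tool, the annotation and whether strand was used are not given in the sources used here. Reads were recovered as FPKM × gene length × library total. For 16945 of 32806 genes above 0 the GENCODE release 29 exon length gave whole reads (within 0.02) in all libraries. For the others the smallest length that did so was taken, so that whole reads are no check of their lengths. Recovered reads made up 99.81% to 99.88% of the totals. Library totals were 35517179, 36650036 and 34300991 (control), 35138071, 40843638 and 34374980 (10 mM) and 30974968, 39780925 and 33060480 (20 mM).

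Genes needed 10 depth-scaled reads in 3 libraries and 15 in total, leaving 16570. limma 3.58.1 (R 4.3.3, lmFit and eBayes with trend) was fitted to log2(FPKM + 1) of all 9 libraries without a replicate block, two-sided, with Benjamini-Hochberg adjustment. Replicates correlated at 0.989 to 0.996 (Pearson, across genes) and differed by 4.75 to 58.3 times the sampling variance per gene, so each counted as 1 sample. Tables and figures used Python 3.11.15, pandas 2.3.3, numpy 2.4.6 and matplotlib 3.10.9.

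Named genes were the 9 members, genes of the lists where described, and the 3 genes most like each of up to 3 called members. Some genes that this rule or the lists take are not reported here. The members and lists were chosen with earlier results of these data known. The lists were class I heavy chains, peptide loading and trimming, immunoproteasome and PA28, MHC transcription, interferon gamma signalling, PD-L1 protein turnover, class II, other ligands of lymphocyte receptors and NKG2D ligands. Alternatives were another pseudocount, 2 filters, 2 scalings, limma-voom on recovered reads, fits of 2 groups, a replicate block, leaving out each library and the study's cutoffs on an unadjusted p.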

Additional observations from a re-analysis of the deposited data

How the results depend on the processing

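TAP2 was called lower at both doses in 17 of 17 alternatives that kept the adjusted p threshold. The count of the 9 genes called lower at 10 mM, 2 in the report, was 1 with all 32806 genes above 0, with upper-quartile scaling, with only the 2 groups compared and with a replicate block, and ranged from 1 to 2 when each library was left out. At 20 mM the count of 2 became 1 with all genes above 0, with either other scaling and with a replicate block, 4 with only the 2 groups compared (B2M and TAPBP added), and from 1 to 4 leaving out each library, with 4 without the first 10 mM library. Apart from the 2 scalings, the shares of all genes called under these fits are not given here. These counts therefore cannot be read as a result about the members. With the cutoffs of the study's methods (p under 0.05 and a log2 change beyond 1 either way, given there for DESeq2 without saying whether p was adjusted), taken here on limma's unadjusted p, it was 0 at both doses, where 192 and 324 of all 16570 genes were lower and 96 and 160 higher, so few that a count of 0 of 9 says little of the members. The other listed genes called higher at 20 mM went from 11 to 17 with upper-quartile scaling. The share of all genes called higher went from 15.4% to 19.8% with it, and the share called lower from 21.6% to 16.8%. Among the other listed genes, the call at 10 mM was held in 5 alternatives for PSME1, 9 for CD47 and CMTM4, 10 of 16 for RAET1L, 12 for STAT3, 13 for TAPBPL, 15 for NECTIN2 and 16 for HLA-E and GSK3B. At 20 mM it was held in 8 for BTRC, 10 for PSME1, 11 for HLA-DPB1, 14 for STAT3 and CMTM6, 15 for NECTIN2 and LGALS9 and 16 for MR1 and HLA-DPA1, and in 17 of 17 for the other called genes of the lists. No called gene of the lists changed sign in any alternative. The replicate numbers did not pair the libraries: deviations of same-numbered libraries correlated between -0.406 and 0.293, and not every library correlated best with its own number. The highest correlations were between different numbers, 0.521 for the first control with the second 10 mM library and 0.488 for the second control with the first 10 mM library. Some libraries of different groups thus deviated together, and the part of this in the calls was not tested. Among the 9 genes, depth limits PDCD1LG2 most, with at least 53 reads per library. The causes of these changes were not tested.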

Other observations

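Of 12 listed ligands of lymphocyte receptors other than the members, 7 were tested, with 1 called higher and 2 lower at 10 mM and 1 higher and 3 lower at 20 mM 2-DG, beside 12.1% of all genes called higher and 17.5% lower at 10 mM and 15.4% and 21.6% at 20 mM. With upper-quartile scaling both lower calls at 10 mM were lost and 2 genes were called lower at 20 mM, and with median-ratio scaling 1 and 2 were. PVR, which binds TIGIT and DNAM-1, was at 33.2, 35.1 and 30.6 FPKM in the control, at 53.6, 49.9 and 50.8 FPKM at 10 mM and at 55.9, 55.3 and 54.1 FPKM at 20 mM 2-DG. Its treated libraries all lay above the controls (log2 fold changes 0.63 and 0.72, limma adjusted p = 6.64e-05 and 1.66e-05). NECTIN2, a ligand of the same receptor family, was at 74.4 FPKM in the control and 62.1 FPKM at each dose and was called lower (-0.26 at both, limma adjusted p = 0.0121 and 0.00974), a call lost under both other scalings. CD47, the signal against phagocytosis, fell by 0.27 and 0.48 on the log2 scale (limma adjusted p = 0.0298 and 0.0012). Its call was held in 9 of 17 alternatives at 10 mM and in 17 of 17 at 20 mM. CD276 (B7-H3) was not called and lay between 17.7 and 21.3 FPKM in all 9 libraries, and CD80 and HHLA2 had 0 reads.

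Of 8 NKG2D ligand genes, 7 were tested, with 2 called higher and 1 lower at 10 mM and 1 each at 20 mM 2-DG, next to the same shares of all genes. MICB was at 31.1, 32.3 and 30.0 FPKM in the control, at 23.2, 20.6 and 20.9 FPKM at 10 mM and at 20.6, 21.0 and 22.5 FPKM at 20 mM 2-DG, below the controls in all 6 treated libraries (log2 fold changes -0.51 and -0.52, limma adjusted p = 0.000313 and 0.000184). MICA, its close paralogue, was not called and lay between 30.4 and 35.0 FPKM. The similarity of MICA and MICB can split reads between them, which makes both levels uncertain. ULBP3 rose from 2.14 FPKM in the control to 3.18 and 3.03 FPKM (log2 fold changes 0.42 and 0.36), and RAET1L was called higher at 10 mM, from 13 reads in the 3 controls to 49. RAET1L reached 10 reads only in treated libraries, so it was tested only because of the groups in which it was high, and its call rests on few reads.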
